A study of Mus musculus with 12 samples.

Results

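Peaks of trimethylated lysine 27 of histone H3 (H3K27me3) were compared between iMEFs in which Ezh2 had been replaced by Ezh1 and iMEFs in which it had been replaced by Ezh2. The comparison used 2 of the 12 samples of the series, the Ezh1 pre-rescue library and the Ezh2 pre-rescue library of experiment 2, chosen by their labels. After exact duplicate lines were dropped and the 19 autosomes were kept, the Ezh1 rescue list held 111774 peaks and the Ezh2 rescue list 64240. Each rescue was 1 library, so no p-value between the rescues was computed, and the intervals given below are 95% Wilson intervals that cover counting error only.

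The cells were mouse embryonic fibroblasts transformed with c-Myc and grown as 1 clone, C2. Per the study's methods the c-Myc clone carried 1 floxed and 1 deleted Ezh2 allele. It also carried ROSA26-CreERT2, a Cre recombinase switched on by 4-hydroxytamoxifen. In the Ezh1 rescue, a retrovirus stably expressed Flag-tagged Ezh1 before endogenous Ezh2 was deleted, and in the Ezh2 rescue the same vector expressed Flag-tagged Ezh2. According to the labels 4-hydroxytamoxifen was used at 1 nM to 1 µM. Experiment 2 also had 2 wild-type libraries (labelled Ezh2 WT/WT) and 2 knockout libraries (labelled Ezh2 -/-). All were immunoprecipitated with the same antibody, clone 7b11, and read as 100-bp single reads. Since both rescue lines came from 1 clone by separate infections and selections, the enzyme, its level of expression and the history of each line cannot be told apart. The lists give where a peak was called and not how high it was, and the number of reads behind each list was not in the files used here.

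Ezh1 and Ezh2 are the alternative catalytic subunits of Polycomb-repressive complex 2 (PRC2), which also holds Eed and Suz12 and deposits H3K27me3 over silent developmental genes. Eed binds H3K27me3 and stimulates the enzyme, and this loop is thought to let the mark extend from places of recruitment into neighbouring chromatin. Ezh2 is the main form in dividing cells, whereas Ezh1 is also present in resting and differentiated cells and is known for a weaker methyltransferase activity.

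The Ezh1 rescue peaks covered 253 Mb, or 10.6% of the autosomes, and the Ezh2 rescue peaks covered 80.3 Mb, or 3.35%. The covered length was thus 3.15-fold larger in the Ezh1 rescue, while the wild-type replicates, with 14.9 and 11.2 Mb, differed by 1.32-fold and the knockout replicates, with 0.481 and 0.0589 Mb, by 8.17-fold. Both rescues therefore covered more than either wild-type library, by 19.4-fold for Ezh1 and 6.16-fold for Ezh2 relative to the wild-type mean. The knockout lists held 29 and 382 autosomal peaks, so that the spread between replicates of one condition reached a larger fold in the sparsest lists than the difference between the rescues. Per the study's methods, reads were subsampled to a common number, and a coefficient set by how much DNA the immunoprecipitation had yielded was applied to the Ezh1 rescue and the knockout only. The files do not show whether peaks were called before or after this step, and its part in the covered lengths was not tested. The covered length counts bases within called peaks and is no measure of the global amount of H3K27me3, which these lists do not give.

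The number of peaks differed by 1.74-fold and the median width by 1.16-fold, which is less than the ratio of covered lengths. Peaks of 5 kb or more held 110 Mb in the Ezh1 rescue and 5.47 Mb in the Ezh2 rescue, or 60.5% of the difference of 172 Mb between the lists. The median peak was 1100 bp wide in the Ezh1 rescue against 950 bp in the Ezh2 rescue. The 90th percentiles were 4300 and 2150 bp, and the widest peaks were 243800 and 34300 bp. Peaks of 20 kb or more numbered 1036 in the Ezh1 rescue against 3 in the Ezh2 rescue. These 1036 peaks, 0.927% of the list, held 37.8 Mb or 14.9% of the bases of the Ezh1 rescue, against 0.0964% of the bases in the Ezh2 rescue. Neither wild-type list held a peak of 10 kb or more. The Ezh1 rescue peaks also lay closer together, with a peak within 1 kb of 43.2% of them, against 27.2% in the Ezh2 rescue and less than that, 7.99% and 7.85%, in the wild-type lists.

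**Figure D1:**
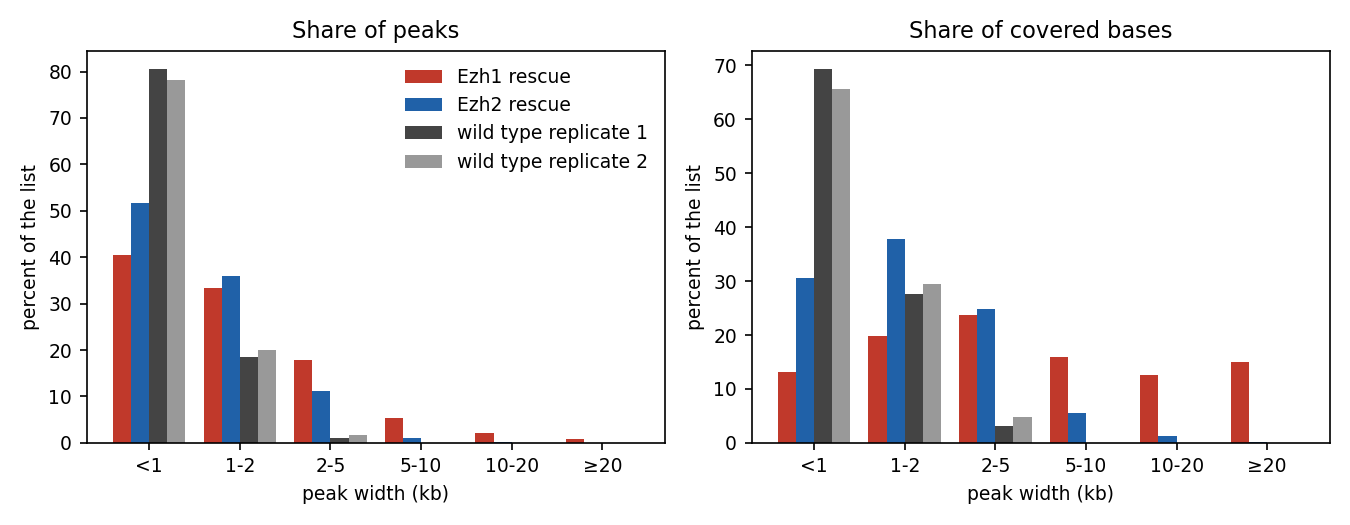
Share of peaks (left, percent of each list) and share of covered bases (right, percent of each list) by peak width in kb, for both rescues and the 2 wild-type replicates of experiment 2, autosomes. In the Ezh1 rescue 14.9% of the bases lay in peaks of 20 kb or more, and in the Ezh2 rescue 0.0964%.

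The bases of the Ezh2 rescue lay largely inside those of the Ezh1 rescue. The lists shared 70.9 Mb, which was 88.3% of the Ezh2 rescue and 28.1% of the Ezh1 rescue, and left 182 Mb covered in the Ezh1 rescue alone and 9.43 Mb in the Ezh2 rescue alone. Of the Ezh2 rescue peaks 85.2% (interval 85.0 to 85.5) overlapped an Ezh1 rescue peak by at least 1 bp, whereas 28.6% (28.4 to 28.9) of the Ezh1 rescue peaks overlapped an Ezh2 rescue peak. Sharing depended on width. Among Ezh1 rescue peaks under 1 kb 9.66% had an Ezh2 rescue peak, among those of 2 to 5 kb 52.1%, and among those of 20 kb or more 100%. The 79752 Ezh1 rescue peaks without a partner had a median of 950 bp and reached 15250 bp, and the 9484 Ezh2 rescue peaks without one had a median of 700 bp and reached 3850 bp.

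Where the rescues shared a site, the Ezh1 rescue domain was usually the wider. Overlapping peaks of both lists were joined into 31112 shared sites, of which 28015, or 90.0% (89.7 to 90.4), were covered over a greater length in the Ezh1 rescue, and 2526, or 8.12%, over a greater length in the Ezh2 rescue. The median covered length was 2600 bp in the Ezh1 rescue against 1050 bp in the Ezh2 rescue, and the median ratio within a site was 1.92. A peak enters a shared site by overlapping, which a wide peak does more readily, and this was not corrected for. At the 21827 sites made of 1 peak of each list, which are free of joined peaks, the share was 86.8% (86.3 to 87.2) and the median ratio 1.86.

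The extra width lay on both sides of the Ezh2 rescue domain. The outer end of the Ezh1 rescue passed that of the Ezh2 rescue by a median of 400 bp per side, with a 10th percentile of -50 bp, a 90th percentile of 2350 bp and a 99th percentile of 6000 bp. At 65.9% of the sites the Ezh1 rescue passed both ends, and at 2.17% the Ezh2 rescue did. The median reach was 300 bp where the Ezh2 rescue covered under 1 kb and 950 bp where it covered 20 kb or more, which is a small distance beside the width of those 357 domains, with median covered lengths of 47700 and 29450 bp. There, 85.1% of the bases covered in the Ezh1 rescue alone lay in gaps between neighbouring Ezh2 rescue peaks, and the rest lay outside the outermost Ezh2 rescue peaks. Over all shared sites 27.9 Mb of such bases lay in gaps and 54.2 Mb outside, so that 33.9% lay in gaps. This share was 12.2% where the Ezh2 rescue covered 1 to 2 kb and 59.6% where it covered 5 to 10 kb.

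Single Ezh1 rescue peaks often spanned a row of Ezh2 rescue peaks. At 8398 shared sites 1 Ezh1 rescue peak lay over several Ezh2 rescue peaks, and at 499 sites 1 Ezh2 rescue peak lay over several Ezh1 rescue peaks. At most 80 Ezh2 rescue peaks lay under 1 Ezh1 rescue peak, and at most 3 the other way. The peak with 80 was also the widest of the Ezh1 rescue, 243800 bp at chr11:96342501-96586300 within Skap1, which encodes an adaptor of T-cell receptor signalling and lies beside the Hoxb cluster. The Ezh2 rescue covered 59.8% of it, and the wild-type replicates 39100 and 23250 bp.

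The other widest Ezh1 rescue peaks were domains in which the Ezh2 rescue was dense but broken. A peak of 169800 bp (chr11:116744601-116914400) held Mgat5b, a glycosyltransferase gene, and 46 Ezh2 rescue peaks that covered 65.7% of it. A peak of 167600 bp (chr6:99975601-100143200) held no protein-coding gene, and its nearest start site was that of Rybp, a subunit of PRC1, 94235 bp away. Lgr6, a receptor for R-spondins, lay with Ptprv and Ptpn7, which encode protein tyrosine phosphatases, in a peak of 165200 bp (chr1:136877801-137043000) of which the Ezh2 rescue covered 87.3%. Cbfa2t3, a transcriptional corepressor of blood progenitors, lay with Pabpn1l in a peak of 154400 bp (chr8:125143901-125298300) covered to 84.7% by the Ezh2 rescue. The site with the next largest gain after Skap1 was 109750 bp in Megf11 (chr9:64348001-64457750), where 30 Ezh2 rescue peaks covered 36.7%.

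The widest Ezh2 rescue peaks were covered fully by the Ezh1 rescue as well. The widest, 34300 bp at chr2:26949951-26984250, lay over Adamtsl2, which encodes a secreted matrix protein, and Fam163b, and 1 of 20100 bp lay in Arid3a (chr10:79397501-79417600), a transcription factor gene of B cells. Sites where the Ezh2 rescue led were narrow by comparison: the 5 largest leads were 1850 to 2350 bp, at sites of 3100 to 3550 bp. All 3 of the widest Ezh2 rescue peaks without an Ezh1 rescue peak, of 3850, 2950 and 2800 bp, and 2 of those 5 sites lay within 116700 bp of chromosome 10 (chr10:13954551-14071250), in a gene-poor stretch whose nearest start sites were those of Hivep2 and Gm10335. This stretch was singled out after its values were seen. The Ezh2 rescue covered 36.4% of it with 26 peaks, the Ezh1 rescue 15.6% with 16, and the wild-type replicates 4.88% and 3.60%.

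As a reference that neither rescue defined, the rescues were compared around 3936 regions held by both wild-type lists of experiment 2. The Ezh1 rescue overlapped 94.0% (93.2 to 94.7) of them and the Ezh2 rescue 85.5% (84.4 to 86.6). Both rescues overlapped 82.9%, the Ezh1 rescue alone 438 regions, the Ezh2 rescue alone 106, and neither 131. The difference was largest for narrow regions. Of wild-type regions under 1 kb the Ezh1 rescue held 89.4% and the Ezh2 rescue 73.0%, while of those of 2 to 5 kb they held 98.5% and 99.5%.

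Beyond the regions themselves the rescues separated further. At the middle of the wild-type regions 93.5% were covered in the Ezh1 rescue against 83.9% in the Ezh2 rescue. At 5 kb the values were 69.9% and 38.0%, at 20 kb 56.6% and 29.2%, and at 50 kb 44.8% and 21.0%. Coverage dropped below 50% of its value at the middle 3000 bp away in the Ezh2 rescue and 42000 bp away in the Ezh1 rescue, distances that depended on the reference. Around the middle of the shared part of rescue sites they were 1000 and 8500 bp. The 5 kb on either side were covered to 74.4% on average in the Ezh1 rescue against 42.2% in the Ezh2 rescue, a gap of 32.2 points. The wild-type replicates covered 9.15% and 8.28% and differed by less than 1 point. Their peaks formed the regions and end at the region borders, so their low flank values are partly fixed by that choice and do not gauge the gap. Both flanks were covered without a break at 29.9% of the regions in the Ezh1 rescue against 0.457% in the Ezh2 rescue.

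**Figure D2:**
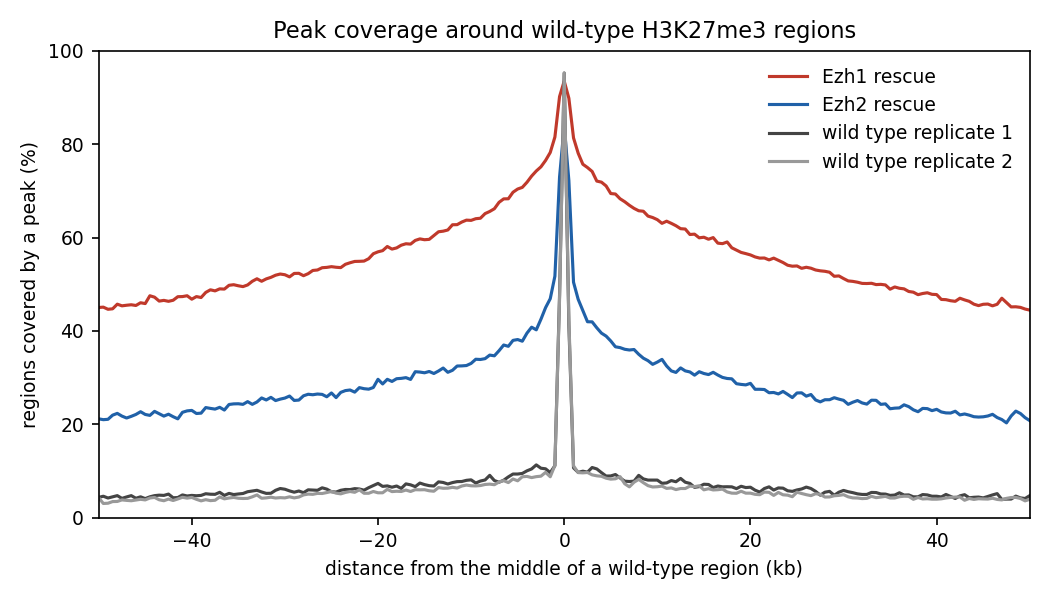
Percent of 3935 wild-type H3K27me3 regions covered by a peak (y axis) against distance from the middle of the region in kb (x axis), for both rescues and the wild-type replicates of experiment 2. At 5 kb the Ezh1 rescue covered 69.9% and the Ezh2 rescue 38.0%. The wild-type lists chose the regions, so their height at the middle, and in part their drop beside it, is fixed by that choice.

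Experiment 1, made with another antibody and 75-bp SOLiD reads, gave a wider wild-type reference of 45953 regions. The Ezh1 rescue overlapped 78.7% and the Ezh2 rescue 49.0% of them. Of its regions under 1 kb the rescues held 62.7% and 22.5%, and of its 777 regions of 20 kb or more 98.7% and 98.8%, so the broadest wild-type domains were found in both. Within those domains the Ezh1 rescue covered 85.7% of the bases and the Ezh2 rescue 48.8%. At wild-type regions on promoters the shares found were 90.1% and 67.8%, in gene bodies 80.5% and 51.4%, and between genes 75.1% and 43.3%. Around the middle of these regions coverage was 65.5% in the Ezh1 rescue against 23.6% in the Ezh2 rescue, and at 5 kb 49.5% and 16.1%. It dropped below 50% of the value at the middle 41000 bp away in the Ezh2 rescue and stayed above it up to 50 kb in the Ezh1 rescue, so that the decline with distance was more alike here than around the regions of experiment 2. The experiments were processed separately and differ in platform, and the levels of their lists are not comparable.

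At the level of genes, the promoter reached 2500 bp to each side of the transcription start site (TSS) of 21418 autosomal protein-coding genes. A promoter peak was present at 6170 genes, or 28.8%, in the Ezh1 rescue against at 4188 genes, or 19.6%, in the Ezh2 rescue. Both rescues held a peak at 3885 genes (18.1%), the Ezh1 rescue alone at 2285 (10.7%) and the Ezh2 rescue alone at 303 (1.41%). The smaller count depended on the peaks kept: with peaks of at least 1000 bp it was 123, and with only the widest Ezh1 rescue peaks, as many as the Ezh2 rescue list held, the counts were 1498 and 554. Of the genes held in the Ezh2 rescue 92.8% were held in the Ezh1 rescue, and of those held in the Ezh1 rescue 63.0% were held in the Ezh2 rescue. Where both held a peak, the median share of the promoter covered was 83.0% in the Ezh1 rescue against 32.0% in the Ezh2 rescue, with 3583 genes higher in the former and 237 in the latter. The whole promoter was covered at 1012 genes (4.72%) in the Ezh1 rescue and 23 genes (0.107%) in the Ezh2 rescue. Coverage was higher by 50 points or more in the Ezh1 rescue at 1677 genes (7.83%) and in the Ezh2 rescue at 3 genes (0.0140%). The 3 were Tns4, Mbl2, which encodes a mannose-binding lectin of liver (18% in the Ezh1 rescue against 70.6% in the Ezh2 rescue), and Cd1d1, a lipid antigen-presenting molecule (4.76% and 57.0%).

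Genes marked in 1 rescue alone were closer to a peak of the other rescue than unmarked genes were. From the TSS of the 2285 genes of the Ezh1 rescue alone, the nearest Ezh2 rescue peak was at a median of 8499 bp and within 10 kb for 55.5%, against 11.4% of the genes of neither rescue. From the 303 genes of the Ezh2 rescue alone, the nearest Ezh1 rescue peak was at a median of 7842 bp, and within 10 kb for 56.8%, against 19% of the genes of neither. Promoter coverage was shallow in both classes, with a median of 25.6% for the former and 13.0% for the latter. A wild-type peak in either replicate of experiment 2 was present at 46.2% of the genes of both rescues, 10.1% of those of the Ezh1 rescue alone, 18.5% of those of the Ezh2 rescue alone and 1.04% of the rest.

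The promoters of some genes marked in 1 rescue alone or in both, picked by the width of their peak or site or from the gene lists, are shown to let their CpG content be read, since CpG islands without active transcription are where PRC2 is classically recruited in mammalian cells. Each runs from 280 bases before to 20 bases after the TSS in NCBIM37 (mm9), 5′ to 3′ on the strand of the gene, with CG dinucleotides in capitals. Scn4a, a sodium channel gene of skeletal muscle, had the widest Ezh1 rescue peak that reached the promoter of a gene without an Ezh2 rescue promoter peak. Pax6 and Hand2 encode regulators of neural and cardiac development and were marked in the Ezh1 rescue alone. Pigc, of glycosylphosphatidylinositol anchor synthesis, and Neurod6, a neuronal transcription factor, were marked in the Ezh2 rescue alone. Irf8, a transcription factor of myeloid cells, had the widest shared site that reached the promoter of a gene marked in both rescues. Hoxb13 had its whole promoter covered in both rescues.
Scn4a (chr11:106214583-106214882, minus strand): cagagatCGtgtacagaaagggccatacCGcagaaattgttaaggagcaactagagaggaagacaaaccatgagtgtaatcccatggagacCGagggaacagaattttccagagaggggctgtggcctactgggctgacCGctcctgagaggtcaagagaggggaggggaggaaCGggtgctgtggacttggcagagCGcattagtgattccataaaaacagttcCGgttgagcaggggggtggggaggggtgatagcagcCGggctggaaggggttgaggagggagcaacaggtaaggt
Pax6 (chr2:105508773-105509072, plus strand): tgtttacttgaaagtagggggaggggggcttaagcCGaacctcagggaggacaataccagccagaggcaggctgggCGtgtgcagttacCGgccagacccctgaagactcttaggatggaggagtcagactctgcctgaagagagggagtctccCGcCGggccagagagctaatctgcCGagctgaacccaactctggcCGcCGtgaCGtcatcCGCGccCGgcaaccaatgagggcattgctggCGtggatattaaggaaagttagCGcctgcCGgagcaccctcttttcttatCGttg
Hand2 (chr8:59799500-59799799, plus strand): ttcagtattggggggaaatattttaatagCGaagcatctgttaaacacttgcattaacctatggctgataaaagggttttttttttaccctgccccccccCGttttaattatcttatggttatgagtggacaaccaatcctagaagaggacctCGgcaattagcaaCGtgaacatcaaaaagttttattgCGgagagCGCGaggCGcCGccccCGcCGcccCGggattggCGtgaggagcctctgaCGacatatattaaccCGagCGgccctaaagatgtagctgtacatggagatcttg
Pigc (chr1:163899037-163899336, plus strand): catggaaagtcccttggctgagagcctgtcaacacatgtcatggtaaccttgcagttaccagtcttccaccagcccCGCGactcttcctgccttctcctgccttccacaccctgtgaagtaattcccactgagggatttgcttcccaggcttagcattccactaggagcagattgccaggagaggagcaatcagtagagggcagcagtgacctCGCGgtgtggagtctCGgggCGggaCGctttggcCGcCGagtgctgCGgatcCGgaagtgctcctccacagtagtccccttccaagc
Neurod6 (chr6:55631238-55631537, minus strand): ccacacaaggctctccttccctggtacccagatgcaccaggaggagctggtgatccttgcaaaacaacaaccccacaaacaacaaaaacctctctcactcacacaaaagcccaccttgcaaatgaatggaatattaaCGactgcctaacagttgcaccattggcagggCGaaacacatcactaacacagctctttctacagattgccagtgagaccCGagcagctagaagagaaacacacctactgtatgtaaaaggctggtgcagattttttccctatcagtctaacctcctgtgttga
Irf8 (chr8:123259978-123260277, plus strand): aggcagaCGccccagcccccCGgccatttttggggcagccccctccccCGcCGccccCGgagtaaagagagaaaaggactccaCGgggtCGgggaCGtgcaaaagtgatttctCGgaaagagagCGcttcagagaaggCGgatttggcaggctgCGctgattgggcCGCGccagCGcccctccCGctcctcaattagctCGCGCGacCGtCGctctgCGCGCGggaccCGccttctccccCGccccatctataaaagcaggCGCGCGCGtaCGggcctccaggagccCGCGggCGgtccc
Hoxb13 (chr11:96055350-96055649, plus strand): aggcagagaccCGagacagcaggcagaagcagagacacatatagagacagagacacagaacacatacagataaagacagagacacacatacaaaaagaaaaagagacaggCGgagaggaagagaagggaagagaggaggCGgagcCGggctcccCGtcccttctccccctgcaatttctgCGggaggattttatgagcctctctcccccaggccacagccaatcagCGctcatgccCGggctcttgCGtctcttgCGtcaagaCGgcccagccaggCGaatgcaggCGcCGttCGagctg

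These windows held between 3 (Neurod6) and 34 (Irf8) CG dinucleotides, with 8 for Scn4a, 16 for Pax6, 16 for Hand2, 11 for Pigc and 15 for Hoxb13. Over all 21418 promoters of the same length the median was 11, and 94.5% held at least 1. The median was 8 for genes of both rescues, 8 for those of the Ezh1 rescue alone, 9 for those of the Ezh2 rescue alone and 12 for those of neither. The gain in the Ezh1 rescue was seen at each CpG class. At promoters of high CpG content 23.8% of 10699 genes had an Ezh1 rescue peak and 16.4% an Ezh2 rescue peak, at intermediate content 36.5% and 23.9%, and at low content 31.4% and 21.6%.

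At Scn4a the Ezh1 rescue covered the whole promoter and the Ezh2 rescue none of it, although the Ezh2 rescue covered 74.1% of the gene body. The nearest Ezh2 rescue peak lay 2802 bp from its TSS. The promoter was also covered to 100% and 0% at Fgd5, an exchange factor for Cdc42 of endothelial cells, and at Krt24, a keratin gene. The body was covered to 98.0% and 36.0% at Fgd5 and to 100% and 11.8% at Krt24. In the Ezh2 rescue both values were lower than at Scn4a. At Rac2, a small GTPase of blood cells, the promoter was covered to 95% and 0%. Not all of the 10 genes chosen by peak width were filled: at Gosr2, a Golgi SNARE gene, the Ezh1 rescue peak was 63800 bp wide but covered 5.24% of the promoter and none of the body. Grinl1a (25.8%) and Fubp3 (22.6%) were touched at their edges in the same way.

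The genes marked in the Ezh2 rescue alone had narrow peaks. Among the 10 with the widest peaks, from 1750 to 2850 bp, the promoter was covered to 56.6% at Tns4, which encodes a tensin of focal adhesions, to 42.0% at Gpr15, a chemoattractant receptor of lymphocytes, and to 38.0% at Slc9a3r2, a scaffold of sodium-proton exchangers. At Slc9a3r2 the wild-type replicates covered 12% and 38.0%, and at AI646023 31.0% and 24.0%. At Pigc the peak, of 2850 bp, reached 8.68% of the promoter.

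The genes of the widest shared sites that reached a promoter were blanketed in both rescues. At Irf8 the Ezh1 rescue covered 100% and the Ezh2 rescue 86.0% of the promoter, and the wild-type replicates covered 7.86% and 43.9%. At Cbfa2t3 the values were 100% and 99%, at Ptprv 100% and 97.0%, at Lgr6 100% and 95%, at Ptpn7 100% and 93.0% and at Dlx3, a homeobox gene of epidermis and bone, 100% and 91.0%. Arl8a and Acsf3 lay at the edge of such sites and were covered to 42.0% and 26.0%, and to 27.9% and 20.9%.

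**Figure D3:**
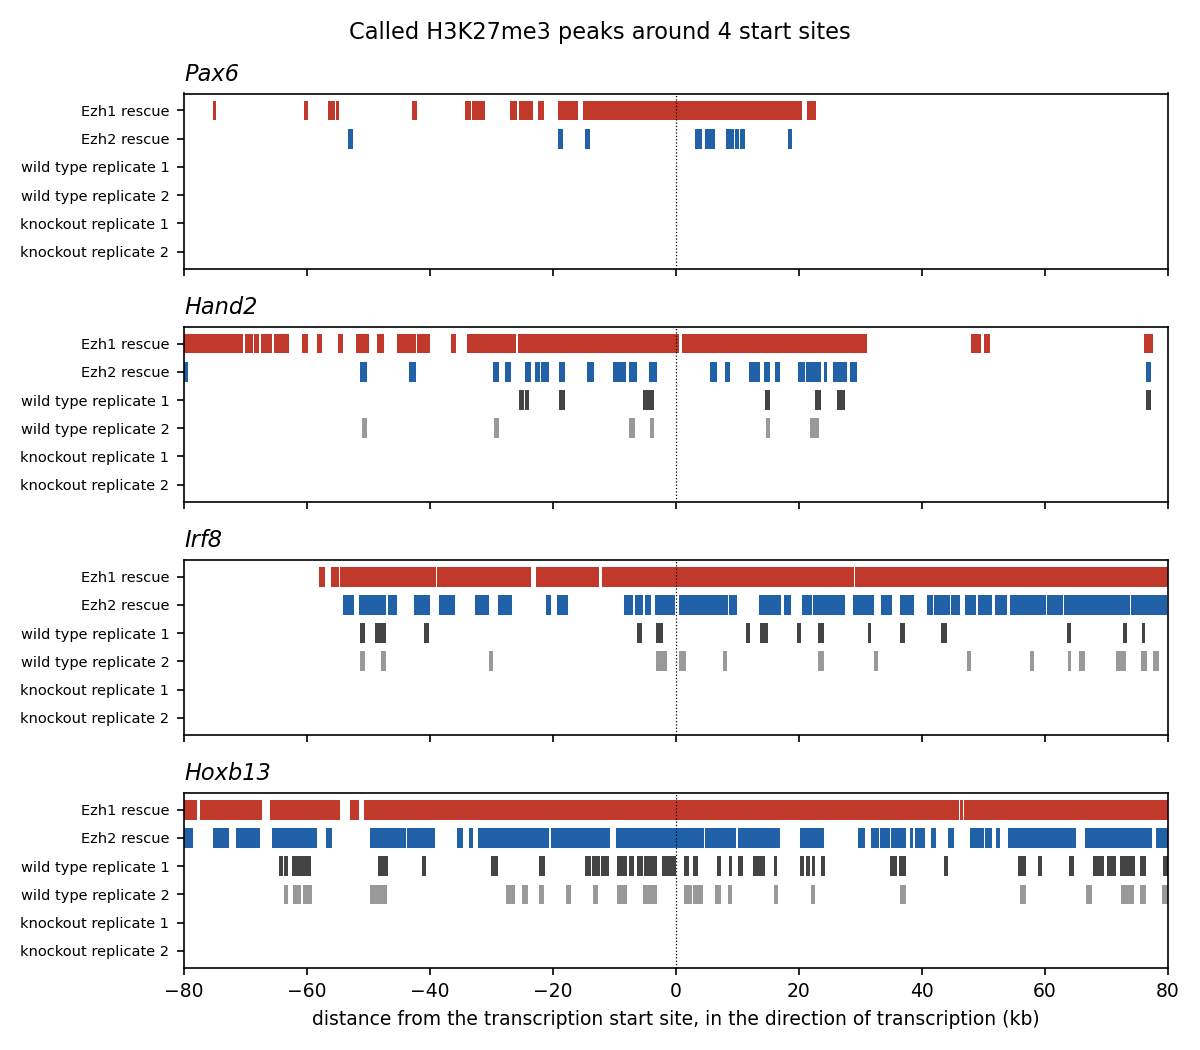
Called H3K27me3 peaks within 80 kb of 4 start sites (x axis, distance from the TSS in kb in the direction of transcription) in both rescues and the wild-type and knockout replicates of experiment 2. Around Pax6 the Ezh1 rescue covered 32.1% of the window and the Ezh2 rescue 5.38%, around Hand2 60.3% and 18%, around Irf8 84.5% and 56.9%, and around Hoxb13 97.3% and 73.4%. No knockout peak lay in any of the 4 windows, though knockout peaks occurred at some other promoters.

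The windows around single genes show the patterns side by side. Around Pax6 the Ezh1 rescue held 13 peaks over 51.4 kb, including 1 of 35650 bp across the TSS. The Ezh2 rescue held 9 peaks over 8.60 kb, the nearest 3198 bp from the TSS, and neither wild-type replicate held any. Around Hand2 the Ezh1 rescue covered 96.5 kb and the Ezh2 rescue 28.8 kb in 25 peaks, and the wild-type replicates 8 and 5.30 kb. Around Hoxb13 the Ezh1 rescue covered 156 kb in 7 peaks and the Ezh2 rescue 117 kb in 34.

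Gene lists were then compared by the number of members with a promoter peak. A gene with such a peak is called marked, and pairs of percentages give the share of the promoter covered in the Ezh1 rescue and then in the Ezh2 rescue. In 17 of 20 lists more members were marked in the Ezh1 rescue, in 3 the numbers were equal, and in none were more marked in the Ezh2 rescue. For all protein-coding genes the shares were 28.8% and 19.6%, with 10.7% marked in the Ezh1 rescue alone and 1.41% in the Ezh2 rescue alone. A list near those values shows nothing particular to its members.

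Lists of developmental regulators had larger marked shares than all protein-coding genes in both rescues, as did the epithelial and the blood and endothelial lists. Of 69 neural and ectodermal transcription factors 54 genes (78.3% of the list) were marked in the Ezh1 rescue against 38 (55.1%) in the Ezh2 rescue, 17 of them in the Ezh1 rescue alone and 1, Neurod6, in the Ezh2 rescue alone. Where both marked a factor, median promoter coverage was 100% and 55.9%, and all 37 were covered further in the Ezh1 rescue. The largest gaps were at Pax6 (100% and 0%), at Pax7, which specifies muscle stem cells and dorsal neural fates (99% and 0%), and at Dlx5, a homeobox gene of the forebrain and skeleton (98.3% and 0%). The nearest Ezh2 rescue peak lay 3198, 4056 and 2835 bp from these start sites, outside the promoter window. At Neurod6 the Ezh2 rescue covered 17.0%. The knockout lists held a promoter peak at 7 of these 69 factors, against 85 of 21418 protein-coding genes. They also held one at 7 of 57 genes of secreted developmental signals, but none at the mesoderm and endoderm factors or the HOX genes.

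Of 69 mesoderm and endoderm transcription factors 54 (78.3%) and 42 (60.9%) were marked, 12 in the Ezh1 rescue alone and none in the Ezh2 rescue alone. The gaps were largest at Nkx3-2, a factor of skeletal patterning (97.0% and 0%), Nkx2-1, the thyroid and lung factor (100% and 3.12%), and Hand2 (91.0% and 0%). The nearest Ezh2 rescue peak lay 3035 bp from the TSS of Nkx3-2 and 3130 bp from that of Hand2. At 24 factors, or 34.8% of the list against 7.83% of all genes, coverage was higher by 50 points or more in the Ezh1 rescue. Lists with more marked members have more that can show such a gap. This share was also 26.1% in the blood and endothelial list and 23.9% in the epithelial list, and 2.78% in that of cell cycle inhibitors and tumor suppressors. Among the mesoderm and endoderm factors Irx3 was covered further in the Ezh2 rescue, with 6.06% and 18%.

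The HOX genes, the classical PRC2 targets that pattern the body axis, differed less in number than in extent. Of 39 genes 25 were marked in the Ezh1 rescue against 23 in the Ezh2 rescue, and the 2 in the Ezh1 rescue alone were Hoxd3 (60.0% of the promoter) and Hoxd1 (21.0%). The whole promoter was covered at 17 genes in the Ezh1 rescue, and at 2, Hoxb1 and Hoxb13, in the Ezh2 rescue. In the Hoxd cluster the Ezh1 rescue covered 45.7% and the Ezh2 rescue 15.3%, with the largest promoter gap at Hoxd13 (97.0% and 23.0%). The clusters Hoxa (36.7% and 28.7%), Hoxb (73.6% and 57.5%) and Hoxc (49.9% and 35.4%) were closer. A single Ezh1 rescue peak covered the marked stretch of Hoxc, where the Ezh2 rescue had 17, and Hoxc9 at its border was covered to 97.6% and 29.6%. The same 14 genes, among them Hoxb2, Hoxb3, Hoxc4, Hoxc5, Hoxc6 and Hoxc8, had no promoter peak in either rescue.

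Of 57 genes of secreted developmental signals, 42 (73.7%) and 39 (68.4%) were marked, and in all 39 genes of both the Ezh1 rescue covered more. Shh was covered to 100% and 89.0%, and the widest gaps were at the Wnt ligand genes Wnt4 (86.0% and 12%) and Wnt5b (92.0% and 25%) and at Fgf6 (84.0% and 17.0%). The 3 signal genes in the Ezh1 rescue alone were Nodal (19.6%), Wnt5a (17.3%) and Gdf5 (17.0%). Of 58 axon guidance genes 32 (55.2%) and 26 (44.8%) were marked. Efna5, an ephrin gene (100% and 22.0%), and Ntn1, the netrin gene (84.0% and 19%), were ahead in the Ezh1 rescue, and Sema3c, a semaphorin gene, was marked in the Ezh2 rescue alone (11%).

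Genes of other differentiated cells behaved alike. Of 88 ion channel and neurotransmitter receptor genes 49 (55.7%) and 38 (43.2%) were marked. In the Ezh1 rescue alone 11 were marked, or 12.5%, near the 10.7% of all protein-coding genes. These were led by Chrna3, a nicotinic receptor subunit (98.0% of the promoter), and Adra1a, an adrenergic receptor (89.0%). Of 46 epithelial genes 30 (65.2%) and 24 (52.2%) were marked. St14, the protease matriptase, was covered to 95% and 0%, whereas the neighbouring keratin genes Krt15 (19% and 49.8%) and Krt19 (20% and 40.4%) were covered further in the Ezh2 rescue. Of 46 blood and endothelial genes 30 (65.2%) and 26 (56.5%) were marked, with Cdh5, the endothelial cadherin, covered to 96.5% and 0% and Ikzf3, a lymphoid zinc finger factor, to 100% and 20.9%. Of 30 collagen genes outside the fibroblast list 18 (60.0%) and 13 (43.3%) were marked. Col2a1, the cartilage collagen, was covered to 96.1% and 0% and Col13a1 to 100% and 0%, while Col14a1 was marked in the Ezh2 rescue alone (32.0%).

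Genes that fibroblasts use were seldom marked in either rescue. Of 35 fibroblast genes 3 were marked in the Ezh1 rescue, Fbn1 (17.0%), Tpm1 (12%) and Thy1 (2.34%), and 2 in the Ezh2 rescue, Fbn1 (15.0%) and Tagln (12%). Of 34 housekeeping genes 1 was marked in both, Reep5 (23.0% and 19%), and of 37 cell cycle genes 2, Cdk4 (20.2% and 21.2%) and Bub1 (15.0% and 1.02%). Of 76 ribosomal protein genes 6 and 4 were marked, and the highest coverage was at Rpl3l (72.5% and 36.5%), a form specific to muscle.

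Among 35 genes of the Polycomb complexes themselves 8 and 7 were marked. Cbx7 (90.0% and 12%) and Phf19 (95.9% and 44.9%) were covered much further in the Ezh1 rescue, and Phc2 (37.6%) in the Ezh1 rescue alone. Cbx2 (51.5% and 50.5%) and Pcgf3 (46.0% and 46.0%) were covered nearly alike. Ezh1, Ezh2, Eed and Suz12 had no promoter peak in either rescue.

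Of 36 cell cycle inhibitor and tumor suppressor genes 10 (27.8%) and 8 (22.2%) were marked, close to the shares over all genes. Cdkn1a, which encodes the inhibitor p21, was covered to 100% and 83.5%, and to 72.5% and 56.5% in the wild-type replicates. Cdkn1c (47.0%), Ndrg2 (55.7%) and Dkk3 (39.0%) were marked in the Ezh1 rescue alone and Dkk1, a Wnt antagonist, in the Ezh2 rescue alone (10.9%). Of 49 imprinted genes 20 (40.8%) and 14 (28.6%) were marked. Ascl2, a trophoblast factor (100% and 1.64%), and Th, the tyrosine hydroxylase gene next to it (95.3% and 17.4%), had the widest gaps. Calcr, Rtl1, Mkrn3, Rian and Meg3 were marked, beside Cdkn1c, in the Ezh1 rescue alone, to between 31.0% and 68.2%.

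Of 23 autosomal genes that the text of the publication names, 6 (26.1%) were marked in each rescue, against 28.8% and 19.6% of all protein-coding genes. Cdkn1a, Dab2ip (100% and 87.7%) and Slit2 (47.9% and 25%) were among those marked in both. Cdh1, the epithelial cadherin (16.0%), and Cpa6, a carboxypeptidase (11%), were marked in the Ezh1 rescue alone. Myc (17.0%) and Notch1 (3.66%) were marked in the Ezh2 rescue and not in the Ezh1 rescue. Wild-type replicate 2 covered 16.0% and 16.4% of these promoters, and replicate 1 covered 0 of either. Cdkn2a, Trp53, Pcna, Mki67 and Actb were at 0 in both.

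Members of multigene families were marked less often than all protein-coding genes in both rescues. Of 1106 olfactory receptor genes 130 (11.8%) were marked in the Ezh1 rescue against 65 (5.88%) in the Ezh2 rescue. Of 358 Zfp zinc finger genes 55 (15.4%) and 25 (6.98%) were marked, and of 24 clustered protocadherin genes 3 and 1. At Zfp800 the Ezh1 rescue covered 81.0% of the promoter and the Ezh2 rescue none. Near-identical copies within these families can share or lose reads in mapping, so their counts are less certain.

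**Figure D4:**
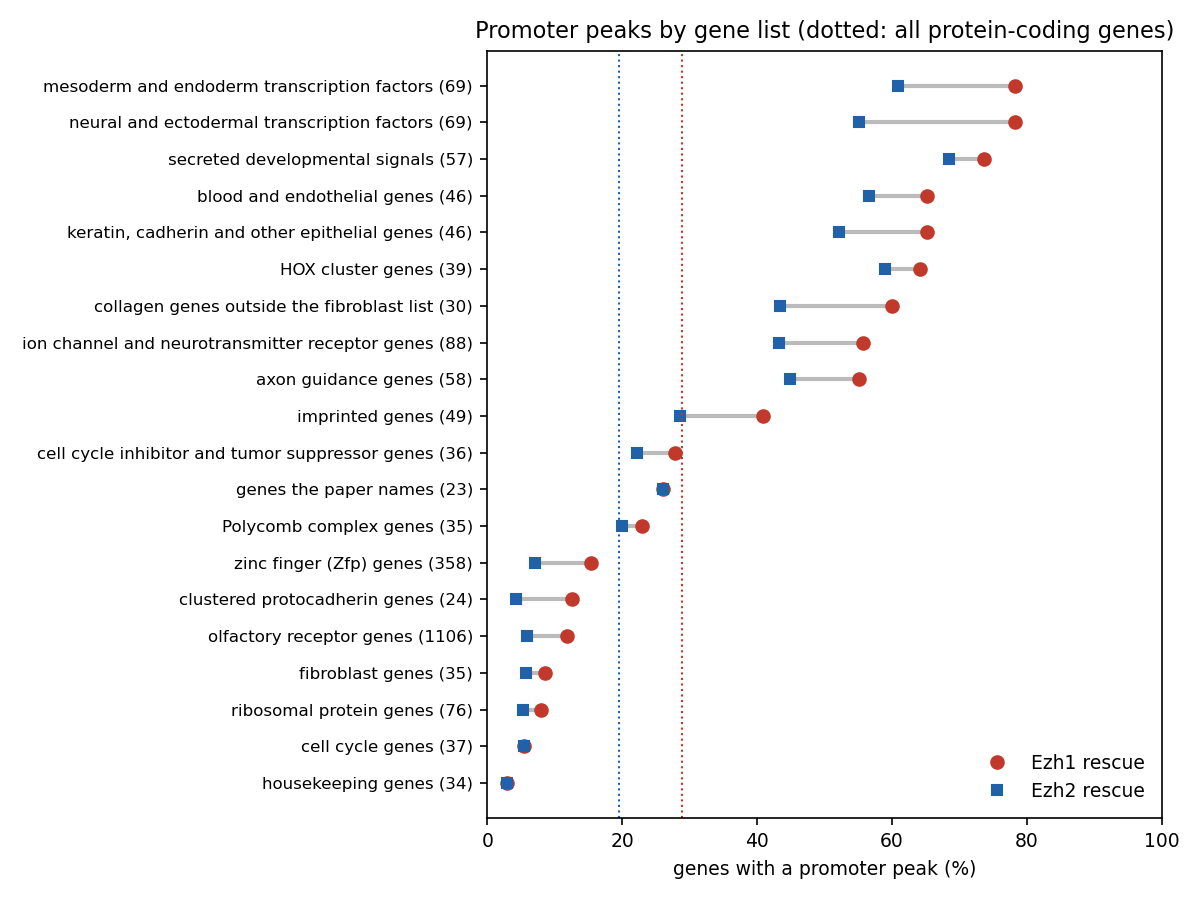
Percent of the genes of each list with a promoter peak (x axis) in the Ezh1 rescue (circles) and the Ezh2 rescue (squares), with the number of autosomal genes of each list in brackets. Dotted lines mark all 21418 protein-coding genes, 28.8% and 19.6%. More members were marked in the Ezh1 rescue in 17 of the 20 lists.

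Among other classes of annotated genes the share with an Ezh1 and an Ezh2 rescue promoter peak was 26.8% and 18.9% of 1232 lincRNA genes, 23.4% and 13.3% of 1468 miRNA genes and 23.5% and 12.3% of 4055 pseudogenes. The ratio was 1.42 for lincRNA genes, 1.47 for protein-coding genes and 1.92 for pseudogenes.

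The bases of the Ezh1 rescue lay more often between genes than those of the Ezh2 rescue. Promoters took 9.51% of the bases of the Ezh1 rescue and 11.9% of those of the Ezh2 rescue, against 6.20% of the autosomes, and intergenic sequence took 53.6% and 48.6%, against 56.6%, a difference of 5.03 points between the rescues. The wild-type replicates, at 51.6% and 48.7% intergenic, differed by 2.90 points. Of the 182 Mb covered in the Ezh1 rescue alone 56.1% were intergenic, and of the 9.43 Mb covered in the Ezh2 rescue alone 57.9%. Both were near the share of the autosomes. The autosome shares in this paragraph count undetermined bases (N), where no peak can be called, whereas the covered percentages of the autosomes given earlier leave them out. Of the shared bases 47.4% were intergenic. The covered length was larger in the Ezh1 rescue in each compartment, by 2.52-fold at promoters, 2.43-fold in exons, 2.99-fold in introns and 3.47-fold between genes. The median distance of a peak to the nearest protein-coding TSS was 40.0 kb in the Ezh1 rescue and 28.6 kb in the Ezh2 rescue.

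Along the chromosomes both rescues followed the GC content of 100-kb bins, with different slopes. In the decile of bins with the lowest GC content the Ezh1 rescue covered 0.364% and the Ezh2 rescue 0.0207%, and in the highest decile 32.5% and 14.3%. The ratio between them was 17.6 in the lowest and 2.26 in the highest decile, and decreased at each step. The highest decile held 42.8% of the bases of the Ezh2 rescue and 30.8% of those of the Ezh1 rescue. The ratio also differed with gene density, from 3.79 in bins without a protein-coding TSS to 2.06 in bins with 8 or more, and between chromosomes, from 2.33 on chromosome 19 to 5.10 on chromosome 14. GC content also affects library amplification and mapping, and its part in these ratios was not tested.

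**Figure D5:**
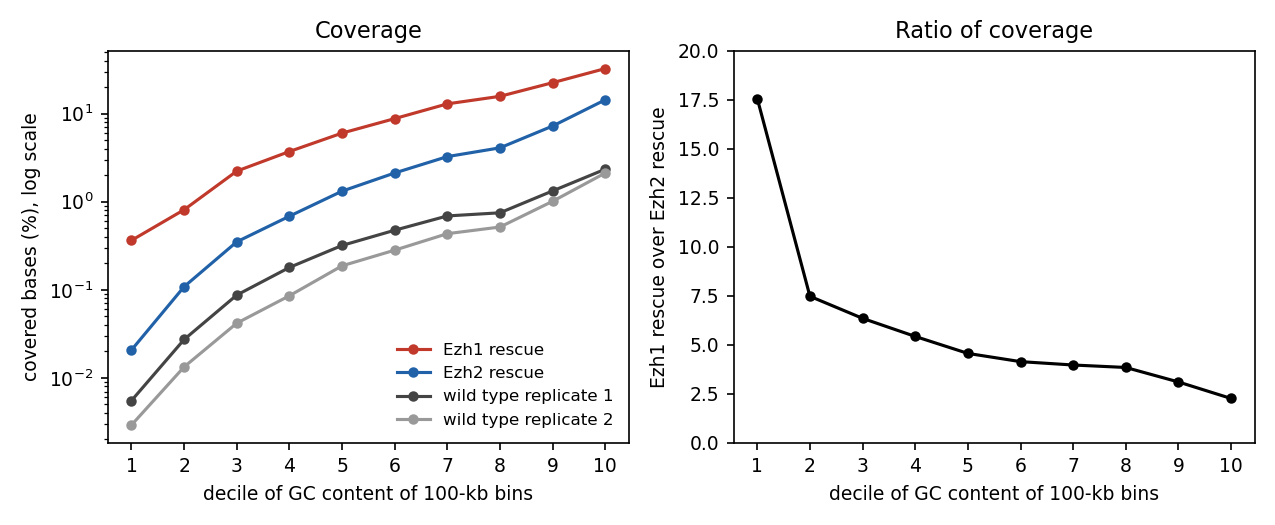
Left, percent of bases covered by peaks (log scale) in 100-kb bins by decile of GC content, for both rescues and the wild-type replicates of experiment 2. Right, ratio of the Ezh1 rescue to the Ezh2 rescue, 17.6 in decile 1 and 2.26 in decile 10.

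Bin by bin the rescues were ordered alike. Over 23978 bins of 100 kb, which share 1 library per rescue and are not independent, coverage correlated with a Pearson's r of 0.853 and a Spearman's rho of 0.864. Coverage was higher in the Ezh2 rescue in 947 bins (3.95%) and higher in the Ezh1 rescue in 49.2%, and 11190 bins held no peak in either. At least 50% of the bin was covered in 1643 bins in the Ezh1 rescue and in 140 in the Ezh2 rescue. The bin around Ptf1a, a factor of pancreas and cerebellum, was among the furthest ahead in the Ezh1 rescue (84.4% and 5.15%, none in either wild-type replicate), as was that of Spon1, a secreted guidance protein (89.1% and 10.5%), and of Grap2, an adaptor of T cells (94.6% and 11.3%). The furthest ahead in the Ezh2 rescue lay on chromosome 19 (chr19:28100001-28200000; 3.40% and 32.3%), in a bin without a protein-coding gene, followed by the pair that holds the stretch of chromosome 10 described above. These bins were ranked and named after their values were seen.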

How the data were processed

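H3K27me3 was profiled by ChIP-seq after MNase digestion. Per the labels and the study's methods, the authors aligned reads to mm9 (Bowtie2 2.1.0), removed duplicates, subsampled the reads and called peaks per sample with MACS2 2.0.10 against input. The deposited lists hold chromosome, start and end of each peak, in bp, all on a grid of 50 bp, with no score, count or depth. For this report exact duplicate lines (328 and 181 in the Ezh1 and Ezh2 rescue lists) were dropped and autosomes kept. Overlap meant at least 1 bp. A promoter reached 2500 bp to each side of the TSS (GENCODE vM1, NCBIM37). Genes were named by fixed rules: for each list up to 3 members with the largest and up to 2 with the most negative difference in promoter coverage, the 10 genes with the widest peaks of each rescue alone and of both, and the 5 widest peaks. Further genes are named as examples or where a count was 5 or fewer, and were chosen after their values were seen. Of 764 list members 2 had no match and 31 lay on X or Y. The comparison, members and lists were chosen with earlier results of these data known. The interval code gave 0 mismatches on simulated data (Python 3.11.15, NumPy 2.4.6). The experiment 1 knockout lists were not used here. Some genes that these rules name are not reported here.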

Additional observations from a re-analysis of the deposited data

Results flagged for a closer look

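Chromosome X was left out of the comparisons, and both rescues covered more of it than the wild-type lists did, as on the autosomes. The Ezh1 rescue list held 2437 peaks on chromosome X and the Ezh2 rescue list 388, while the wild-type replicates held 55 and 33 and neither knockout list held any. The Ezh1 rescue covered 2.13% of the chromosome (3.46 Mb) and the Ezh2 rescue 0.210% (0.340 Mb), a ratio of 10.2 against 3.15 on the autosomes. Per the publication the cell line is male, with a single copy of chromosome X, and the part of copy number in this ratio was not tested. Single autosomes ranged from 2.33 to 5.10. The ratio was larger where coverage was sparse, at 17.6 in the autosomal bins of lowest GC content, where the Ezh2 rescue covered 0.0207%. The median width was 900 bp in the Ezh1 rescue against 750 bp in the Ezh2 rescue, and the widest peaks there were 24550 and 7400 bp. The Ezh1 rescue list also held 1 peak on the mitochondrial genome, where the wild-type lists held none.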

How the results depend on the processing

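Of 59 values recomputed under an alternative, 24 stayed within their tolerance and 35 moved beyond it. None of the ratios, shares, distances and differences changed direction, while the counts of genes and lists had no direction to check. Ratios, distances and differences had to stay equal after rounding, and the share of wider sites within its counting interval. Counts had a wider, fold-based tolerance. With peaks of at least 1000 bp, the covered length ratio was 3.93, the median width ratio 1.25, the share of shared sites wider in the Ezh1 rescue 93.5%, the median reach 750 bp, the flank difference 34.8 points, the Ezh2-alone genes 123 and the intergenic difference 6.86 points. With as many of the widest Ezh1 rescue peaks as the Ezh2 rescue held, these were 2.70, 1.89, 96.0%, 500 bp, 30.3 points, 554 genes and 3.79 points, and the Ezh1-alone genes were 1498. Choosing 1 list by width raises its widths and the bases it keeps beforehand. The ratios, the share of wider sites, the reach and the differences under this alternative therefore show nothing about stability, and the gene counts share this choice. With peaks less than 1000 bp apart joined, the ratios were 3.10 and 1.35, the reach 750 bp, the flank difference 30.3 points and the intergenic difference 5.35 points. Keeping chromosomes X and Y gave ratios of 3.17 and 1.11. Leaving out rescue peaks over a knockout peak gave a length ratio of 3.09, an overlap of 50% of the narrower peak a reach of 350 bp, wild-type regions of experiment 1 a flank difference of 34.8 points, flanks of 10000 bp 31.7 points, and protein-coding annotation an intergenic difference of 5.13 points. Leaving out either wild-type replicate of experiment 2 gave flank differences of 32.8 to 33.8 points. In an alternative added after the data were seen, the first 50% of the lines of each list, whose meaning no source gives, the values were 3.91, 1.65, 95.3%, 850 bp, 36.3 points and 5.61 points. Their causes were not tested. Lists with more members in the Ezh1 rescue numbered 14 to 17. No paired analysis was possible because each rescue had 1 library and no test was made.

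Peak width and number grow with read depth and with the height of the mark over background, neither of which the lists give, so a place without a called peak is not shown to be free of H3K27me3. The wild-type lists were sparse beside both rescues, and the spread between lines carrying one rescue could not be measured.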
